A study of Mus musculus with 6 samples.

Results

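The genes described here are 10 members of the semaphorin, plexin and neuropilin families: the semaphorins Sema4a, Sema4b, Sema4c and Sema4d, the plexins Plxna1, Plxnb2, Plxnc1 and Plxnd1, and the neuropilins Nrp1 and Nrp2. They were taken by gene name from a table of 23060 names, and all 10 were found. The table holds 31 genes of these families in all. Expression was measured by RNA sequencing as FPKM (fragments per kilobase of transcript, scaled to the mapped fragments of the library), so levels can be compared between genes per length. The 6 libraries were 3 tachypaced and 3 control ones, all labelled HL-1 cells of WT genotype. HL-1 is an established line of mouse atrial cardiomyocytes, and tachypacing is electrical stimulation at a high rate, a culture model of the atrial rate in fibrillation. Both groups grew in Claycomb Medium with 10% FBS, 0.1 mM norepinephrine, 2 mM L-glutamine and penicillin/streptomycin at 100 U/mL. The labels give no pacing rate or duration, nor do they state if each replicate was its own culture. The p-values therefore rest on the spread among these 6 libraries alone, and that spread could be technical.

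Semaphorins are secreted or membrane-bound ligands first described as guidance cues for growing axons. Plexins are their receptors, whose intracellular part carries a GTPase activating domain that acts on Rap proteins, and those of the B subfamily also bind RhoGEFs that activate RhoA. Neuropilins have a short intracellular part and serve as co-receptors of plexins for class 3 semaphorins and of VEGF receptors. In the heart these families are known for the patterning of the outflow tract, vessels and sympathetic nerves, and in leukocytes for the control of migration and of contacts between immune cells.

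The cell type markers did not match the label. Of 10 cardiomyocyte markers 6 had no signal in any library (Myh6, Actc1, Myl7, Nppb, Nkx2-5 and Gata4), and the list summed to 0.107 to 0.361 FPKM in tachypaced and 0.348 to 0.430 FPKM in control libraries. The 10 macrophage markers summed to 1253 to 1391 FPKM in tachypaced and 993 to 1138 FPKM in control libraries, without overlap. Most of that sum was Cd68 (mean 452 FPKM over the 6 libraries) and Lyz2 (431 FPKM), while Fcgr1 and Mertk stayed under 1 FPKM in every library. Of the 8 tested, 7 had a positive log2 fold change, against 4259 of all 10361 tested genes, and Csf1r had one of -0.01. By the test below 2 of the 8 passed, both higher in tachypaced libraries (Lyz2 and Cd14), against 2.3% of all tested genes. Endothelial markers, of interest because neuropilins and Plxnd1 are prominent in that cell type, summed to 8.76 to 10.1 FPKM in tachypaced and 8.06 to 9.06 FPKM in control libraries, nearly all of it Egfl7 and Pecam1, and Cdh5, Erg and Emcn were at 0. Markers of fibroblasts, neurons and glia, and lymphocytes summed to at most 0.144, 1.07 and 3.09 FPKM in any library. In RNA of a whole culture, fewer cells of a type and less RNA per cell cannot be told apart. The control libraries were not alike. On the first principal component of all tested genes, which held 56.4% of the variance, control replicate 1 stood at -1.11, against 13.4 and 17.4 for the other two controls and -12.5 to -6.19 for the tachypaced libraries.

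The stretches around the annotated starts of Plxnb2, Nrp2 and Nrp1 are printed here, since Plxnb2 was the member that passed the test and Nrp2 and Nrp1, the 2 neuropilins, had the highest and the lowest level. Each runs from 250 bases before to 50 bases after a RefSeq start (GRCm38.p6), on the strand of the gene. Capitals mark matches on either strand to GGGCGG, the core of the GC box, and to GAGGAA, a core bound by PU.1, the ETS factor of myeloid cells. The CCAAT box, the TATA box written as TATAAA and the AP-1 motif written as TGANTCA were searched on both strands as well.
Plxnb2, chr15:89180739-89181038, minus strand: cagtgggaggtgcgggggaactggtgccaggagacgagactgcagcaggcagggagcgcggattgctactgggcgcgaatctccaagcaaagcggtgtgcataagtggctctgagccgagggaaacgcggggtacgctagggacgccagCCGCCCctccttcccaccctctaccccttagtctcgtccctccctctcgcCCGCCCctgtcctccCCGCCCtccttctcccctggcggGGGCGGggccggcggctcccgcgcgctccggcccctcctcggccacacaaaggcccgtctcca
Nrp2, chr1:62703067-62703366, plus strand: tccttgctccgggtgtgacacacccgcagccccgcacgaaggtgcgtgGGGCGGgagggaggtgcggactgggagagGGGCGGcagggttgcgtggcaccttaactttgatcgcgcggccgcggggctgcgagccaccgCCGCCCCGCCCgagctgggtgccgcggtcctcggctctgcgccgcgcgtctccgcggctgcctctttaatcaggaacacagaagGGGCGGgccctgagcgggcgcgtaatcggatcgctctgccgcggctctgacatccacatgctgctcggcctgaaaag
Nrp1, chr8:128358823-128359122, plus strand: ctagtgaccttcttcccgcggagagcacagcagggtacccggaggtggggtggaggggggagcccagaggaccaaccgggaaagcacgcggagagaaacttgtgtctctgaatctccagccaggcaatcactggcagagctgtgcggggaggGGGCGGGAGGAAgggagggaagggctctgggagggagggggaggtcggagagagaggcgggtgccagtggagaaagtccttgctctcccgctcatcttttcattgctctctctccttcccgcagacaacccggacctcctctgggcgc
GGGCGG matched 4 times in the Plxnb2 window, 5 times in that of Nrp2, where 2 of the matches share 1 base, and 1 time in that of Nrp1. GAGGAA matched 1 time, in the Nrp1 window, in the bases that directly follow the GC box core. The other 3 motifs had 0 matches in these 3 windows. Of all 32851 windows of this length in the table, 35.7% held the GC box core, 28.3% the PU.1 core, 37.4% the CCAAT box, 13.6% the TATA box and 7.81% the AP-1 motif. The windows had 70.3% G and C in Plxnb2, 70.7% in Nrp2 and 64.0% in Nrp1, against a median of 52.7% over all windows. Plxnb2 has another annotated start, the Nrp1 window lies downstream of the 5′ end that GENCODE gives, and which starts these cells use was not measured.

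In tachypaced libraries Plxnb2, a receptor for class 4 semaphorins, fell by 13.3% of its mean level, and it was the only one of the members to pass the test. Sema4d, Plxna1 and Nrp2 had higher means in tachypaced libraries without passing, and in all 3 control replicate 1 lay with the tachypaced libraries. Sema4a, Sema4b and Sema4c had mean differences of at most 2.97%. The test was limma with a mean-variance trend on log2(FPKM + 1) over the 10361 genes that averaged 1 FPKM or more, with p-values adjusted over all of them by the Benjamini-Hochberg method at a threshold of 0.05. Of the members 9 reached that level and Nrp1 did not. By this test 1 of the 9 passed, against 5.52% of all tested genes (238 or 2.3% higher, 334 or 3.22% lower). That split depends on the scaling, with 268 higher and 180 lower after median of ratios scaling, 250 and 924 after rescaling to a common total, and 13 and 4 after quantile normalization. At an unadjusted p under 0.05 there were 3 of the 9, against 30.2% of all tested genes, and tachypaced and control values did not overlap in 3 of the 9, against 34.9%. The median log2 fold change was 0.03 over the 9 and -0.04 over all tested genes.

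**Figure D1:**
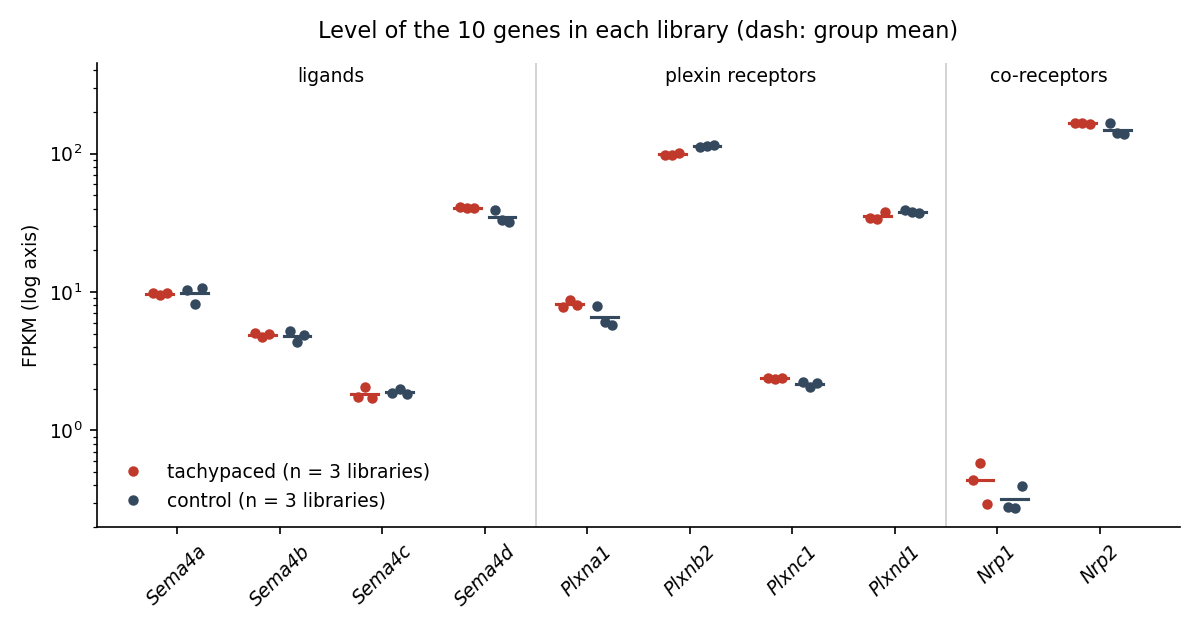
Level of each of the 10 genes in FPKM on a log axis, with 3 tachypaced and 3 control libraries as points and the group mean as a dash, ordered as ligands, plexin receptors and neuropilin co-receptors. Levels run from Nrp2 at 138 to 167 FPKM down to Nrp1 at 0.276 to 0.584 FPKM, and the groups lie close together for every gene.

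The members spanned a wide range of levels. Nrp2 was highest, with a mean of 157 FPKM over the 6 libraries, and 3.40% of tested genes had a higher mean. Plxnb2 followed at 107 FPKM, with 5.11% of tested genes above it. Sema4d (37.7 FPKM) and Plxnd1 (36.6 FPKM) came next, and their ranges overlapped. Sema4a (9.73 FPKM), Plxna1 (7.39 FPKM), Sema4b (4.87 FPKM), Plxnc1 (2.26 FPKM), Sema4c (1.87 FPKM) and Nrp1 (0.377 FPKM) completed the order. Besides Sema4d and Plxnd1, the neighbours whose ranges overlapped were Sema4a and Plxna1, and Plxnc1 and Sema4c, though in these 2 pairs the first was higher in all 6 libraries.

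Among the ligands, Sema4d was the most abundant. Sema4d (chromosome 13, 51685529 to 51793747, GRCm38) encodes CD100, a transmembrane semaphorin of leukocytes that can be shed from the cell surface and that binds Plxnb1, Plxnb2 and, on lymphocytes, Cd72. It stood at 40.9, 40.7 and 40.3 FPKM in tachypaced libraries, against 39.3, 33.0 and 32.3 FPKM in control libraries. The tachypaced values lay close together and above all controls, and control replicate 1 was nearer to them than to the other controls. The log2 fold change was 0.22 (SE 0.08, 95% interval 0.05 to 0.39, adjusted p = 0.0958), which did not pass. Without control replicate 1 it was 0.31 and passed (adjusted p = 0.00246), a setting in which 30.0% of all tested genes passed. In each other omission of a library Sema4d did not pass (adjusted p = 0.171 to 0.282).

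For each of the other class 4 ligands the ranges of the groups overlapped. Sema4a (chromosome 3, 88435959 to 88461182), a ligand of B plexins and Plxnd1 that acts as a co-stimulator of T cells, stood at 9.80, 9.51 and 9.80 FPKM in tachypaced libraries, against 10.4, 8.21 and 10.7 FPKM in control libraries. Its tachypaced values lay inside the range of the controls, with a log2 fold change of 0.00 (SE 0.09, 95% interval -0.21 to 0.21, adjusted p = 0.996). Sema4b (chromosome 7, 80186841 to 80226527), a transmembrane semaphorin, stood at 5.02, 4.76 and 4.98 FPKM in tachypaced libraries, against 5.25, 4.32 and 4.90 FPKM in control libraries. The groups overlapped here too (log2 fold change 0.03, SE 0.08, 95% interval -0.16 to 0.21, adjusted p = 0.849). Sema4c (chromosome 1, 36548639 to 36558349), a ligand of Plxnb2, stood at 1.75, 2.05 and 1.71 FPKM in tachypaced libraries, against 1.85, 1.99 and 1.84 FPKM in control libraries. Both the highest and the lowest of its values were in tachypaced libraries (log2 fold change -0.03, SE 0.09, 95% interval -0.22 to 0.16, adjusted p = 0.840).

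Among the receptors, Plxnb2 (chromosome 15, 89155549 to 89180788) passed the test. It encodes plexin B2, the receptor for Sema4c and, with lower affinity than plexin B1, for Sema4d, and is known for a role in the migration of macrophages and neuroblasts. Its level was 98.3, 97.6 and 101 FPKM in tachypaced libraries, against 112, 114 and 116 FPKM in control libraries, with means of 99.02 ± 1.89 FPKM in tachypaced and 114 ± 2.01 FPKM in control libraries (SD, n = 3 each). All tachypaced values lay below all control values, and control replicate 1 lay with the other controls. Placed between the mean of the other controls (0) and the tachypaced mean (1) on the log2 scale, control replicate 1 stood at 0.15 for Plxnb2, against 0.85 for Sema4d, 0.88 for Plxna1 and 1.05 for Nrp2. The log2 fold change of Plxnb2 was -0.20 (SE 0.05, 95% interval -0.31 to -0.10, adjusted p = 0.0461).

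The Plxnb2 call was close to the threshold. Leaving out control replicate 1 kept it (adjusted p = 0.00836), while leaving out control replicate 2 or 3 or tachypaced replicate 1, 2 or 3 each ended it (adjusted p = 0.158, 0.156, 0.166, 0.172 and 0.0851), with log2 fold changes of -0.22 to -0.19. Over all tested genes the 572 calls became 1, 1, 2, 3 and 13 in the omissions that ended the Plxnb2 call, in the same order. Without control replicate 1 there were 3109 calls. The dependence on single libraries was thus not particular to Plxnb2. The Plxnb2 call also ended after median of ratios scaling (log2 fold change -0.16, adjusted p = 0.0705), after quantile normalization (adjusted p = 0.0537), without the trend (adjusted p = 0.0747) and without the filter on low values (adjusted p = 0.126). The level of Plxnb2 was lower in tachypaced libraries in every setting run.

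**Figure D2:**
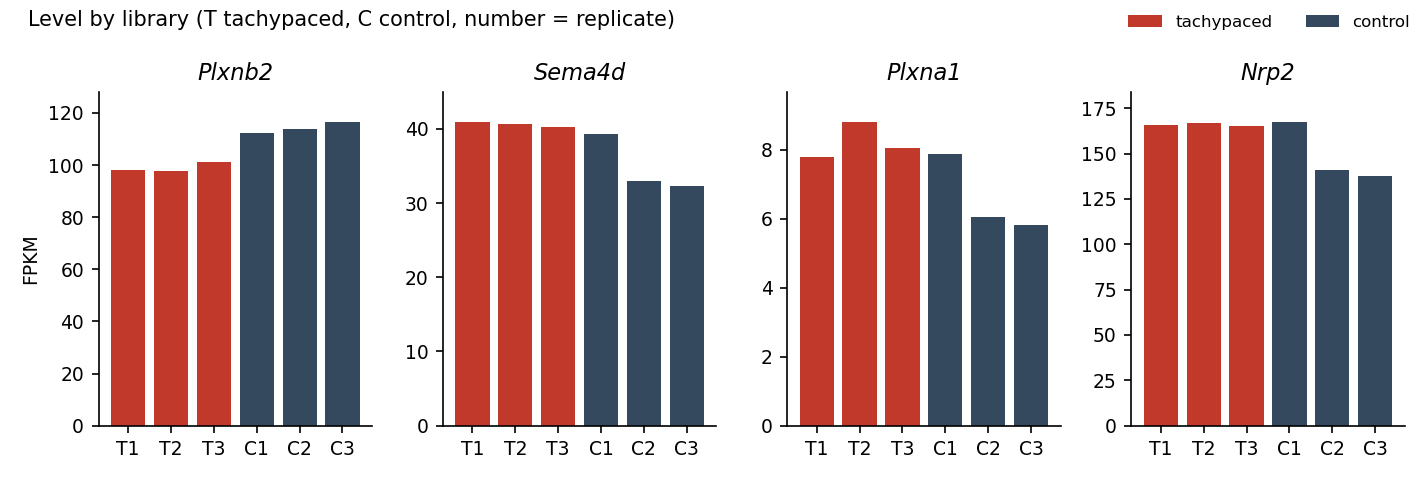
FPKM of Plxnb2, Sema4d, Plxna1 and Nrp2 in each library, with bars from 0, tachypaced replicates (T1 to T3) left of control replicates (C1 to C3). Plxnb2 is lower in the 3 tachypaced libraries than in the 3 controls, while for the other 3 genes control replicate 1 is as high as, or nearly as high as, the tachypaced libraries.

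Plxna1 (chromosome 6, 89316314 to 89362620) encodes plexin A1, which pairs with neuropilins for class 3 semaphorins and, in dendritic cells and osteoclasts, associates with Trem2 and Tyrobp. It stood at 7.78, 8.79 and 8.04 FPKM in tachypaced libraries, against 7.88, 6.05 and 5.81 FPKM in control libraries. Control replicate 1 lay within the tachypaced range and the other controls below it. With the largest fold among the tested members, 24.6% in mean FPKM, its log2 fold change of 0.29 (SE 0.11, 95% interval 0.05 to 0.53) did not pass (adjusted p = 0.109), and without control replicate 1 it was 0.41 and passed (adjusted p = 0.00550). In that setting 30.0% of all tested genes passed. In each other omission of a library Plxna1 did not pass (adjusted p = 0.180 to 0.313).

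Plxnd1 (chromosome 6, 115954811 to 115995005) encodes plexin D1, the receptor of Sema3e that is best known from vessels. Its values were 34.3, 33.7 and 37.8 FPKM in tachypaced libraries, against 38.9, 38.1 and 36.9 FPKM in control libraries. Tachypaced replicates 1 and 2 were below all controls and replicate 3 was among them (log2 fold change -0.11, SE 0.06, 95% interval -0.24 to 0.03, adjusted p = 0.262). Plxnc1 (chromosome 10, 94790866 to 94944835) encodes plexin C1, the receptor of Sema7a, and stood at 2.40, 2.34 and 2.38 FPKM in tachypaced libraries, against 2.22, 2.04 and 2.19 FPKM in control libraries. The groups did not overlap, but the log2 fold change of 0.10 (SE 0.08, 95% interval -0.07 to 0.27) did not pass (adjusted p = 0.399).

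The co-receptors held both ends of the range, with Nrp2 the most and Nrp1 the least abundant member. Nrp2 (chromosome 1, 62703285 to 62818695) encodes neuropilin 2, which binds Sema3f and VEGF-C and is present on macrophages and lymphatic vessels. It stood at 166, 167 and 165 FPKM in tachypaced libraries, against 167, 141 and 138 FPKM in control libraries. Control replicate 1 was the highest of the 6 libraries and the other controls were the lowest, so the groups overlapped. The log2 fold change was 0.16 (SE 0.07, 95% interval 0.00 to 0.33 with its lower bound just under 0, adjusted p = 0.175), and without control replicate 1 it was 0.25 and passed (adjusted p = 0.00398). In that setting 30.0% of all tested genes passed. In each other omission of a library Nrp2 did not pass (adjusted p = 0.270 to 0.449). Nrp1 (chromosome 8, 128358604 to 128503363) encodes neuropilin 1, the receptor of Sema3a and VEGF-A. It stood at 0.434, 0.584 and 0.294 FPKM in tachypaced libraries, against 0.278, 0.276 and 0.395 FPKM in control libraries, with overlap and below the level tested. The level of Nrp2 was 286 to 562 times that of Nrp1 in tachypaced libraries and 348 to 601 times in control libraries.

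**Figure D3:**
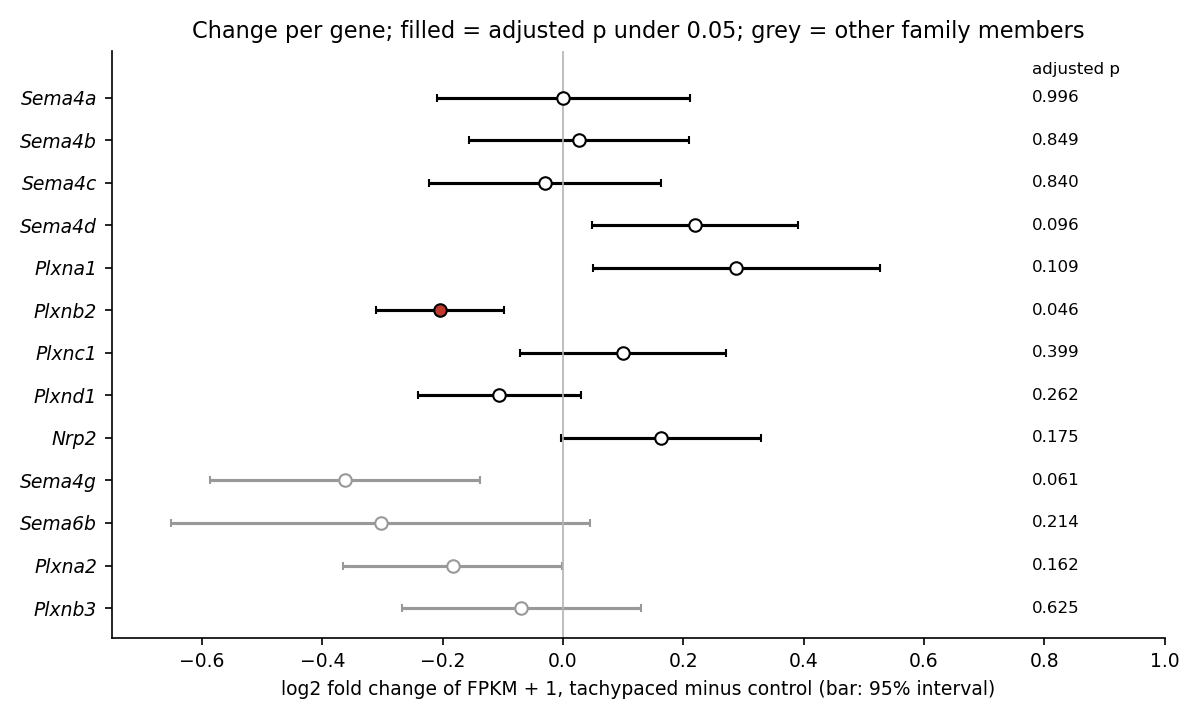
Log2 fold change of FPKM + 1, tachypaced minus control, with its 95% interval and adjusted p, for the 9 tested members (black) and the 4 other tested semaphorins and plexins (grey); a filled point has an adjusted p under 0.05. Plxnb2 at -0.20 is the filled one, Plxna1, Sema4d and Nrp2 lie to the right of 0 and Sema4g lies furthest to the left at -0.36.

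Of the 8 tested macrophage markers Lyz2 and Cd14 passed the test. Lyz2, the lysozyme of myeloid cells, rose to 505, 537 and 470 FPKM in tachypaced libraries, against 410, 339 and 323 FPKM in control libraries (adjusted p = 0.0435), and Cd14, the endotoxin co-receptor, rose to 122, 127 and 109 FPKM in tachypaced libraries, against 91.1, 78.7 and 76.7 FPKM in control libraries (adjusted p = 0.0435). In both, control replicate 1 was the highest control. With no filter 0 of all tested genes passed, and without control replicate 2, or without control replicate 3, 1 passed. The calls of Lyz2 and Cd14 therefore did not both hold in those settings. Over the 8 the median log2 fold change was 0.25, and the other 6 did not pass. The part of these markers in the members' values was not tested. In the annotation 9 of the 10 genes overlap an annotated gene that is not protein-coding and 0 overlap another protein-coding gene, and for Sema4c, Sema4d, Plxna1 and Nrp2 such a gene lies on the opposite strand, whose reads could not be told apart without a known strand setting.

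As shares of their own class, which do not depend on the scaling of a library, Sema4d took more and Plxnb2 less of its class in each tachypaced library than in any control. An exact permutation test of 3 against 3 libraries, two-sided, cannot go below p = 0.1, so none of these shares could pass. Sema4d made up 55.1%, 55.1% and 52.8% of the summed FPKM of class 4 semaphorins in tachypaced libraries, against 51.3%, 45.3% and 43.7% in control libraries (difference 7.56 points, exact permutation p = 0.1, adjusted p = 0.25 over the 10 members). Plxnb2 made up 67.1%, 66.8% and 66.0% of the summed FPKM of plexins in tachypaced libraries, against 67.8%, 69.4% and 70.2% in control libraries (difference -2.50 points, exact permutation p = 0.1, adjusted p = 0.25). For both genes the groups did not overlap, and of the controls, replicate 1 came nearest to the tachypaced values. The shares of Plxna1 (at least 5.25% in tachypaced and at most 4.76% in control libraries) and Plxnc1 (1.55% to 1.64% in tachypaced and 1.24% to 1.34% in control libraries) did not overlap either. Lack of overlap is common here, as the levels of 34.9% of all tested genes did not overlap, and plexin shares of a common sum are not independent. The other 6 members had exact permutation p-values of 0.5 to 1. The plexins together summed to 146 to 153 FPKM in tachypaced libraries, against 164 to 166 FPKM in control libraries. Most of that difference was Plxnb2 itself, with means of 99.0 FPKM in tachypaced and 114 FPKM in control libraries. Of the other tested plexins, Plxna1 and Plxnc1 had higher means in tachypaced libraries and Plxnd1, Plxna2 and Plxnb3 lower ones. As Plxnb2 is the largest part of the class, its fall alone raises the shares of the other plexins. The class 4 semaphorins summed to 73.7 to 76.3 FPKM in tachypaced and 72.9 to 76.6 FPKM in control libraries.

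**Figure D4:**
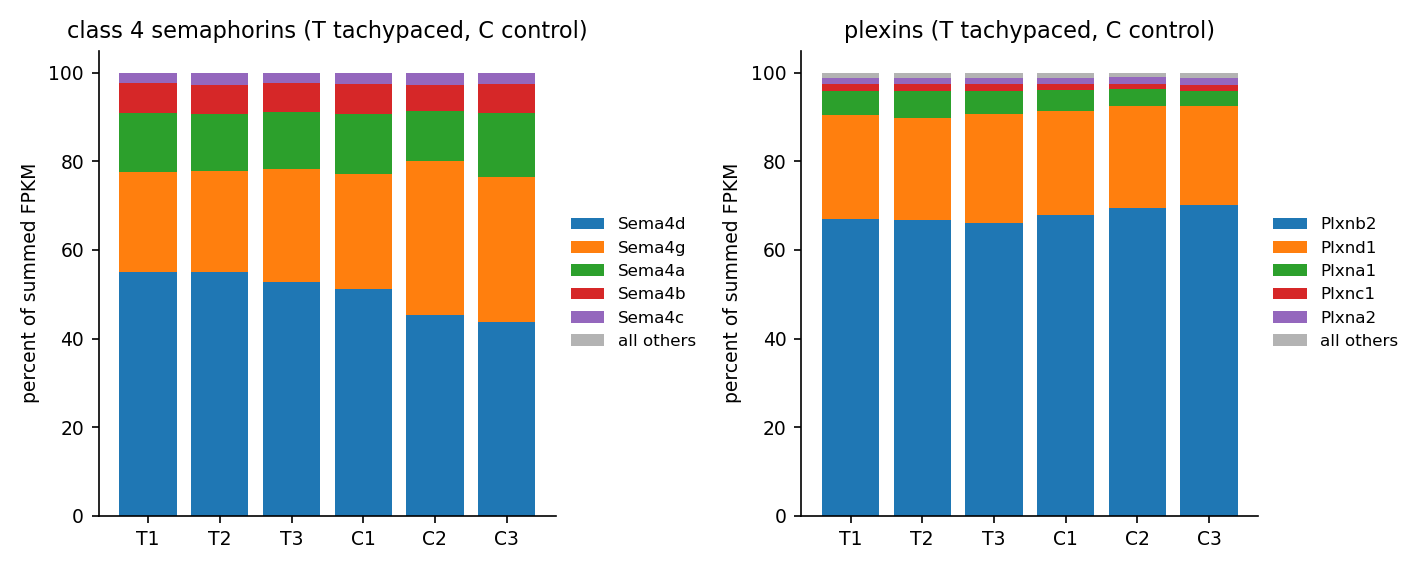
Share of each gene in the summed FPKM of its class, in percent, for class 4 semaphorins and for plexins, with tachypaced replicates (T1 to T3) left of control replicates (C1 to C3). Sema4d takes 52.8% to 55.1% of its class in tachypaced and 43.7% to 51.3% in control libraries with Sema4g moving the other way, and Plxnb2 takes 66.0% to 67.1% of the plexins in tachypaced and 67.8% to 70.2% in control libraries.

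Of the other 21 semaphorin and plexin genes, 4 reached the level tested and 0 passed by limma, with 2 at an unadjusted p under 0.05, against 5.52% and 30.2% of all tested genes. All 4 had lower means in tachypaced libraries, and of all 10361 tested genes 6102 had a negative log2 fold change. Sema4g, a class 4 semaphorin with a Plxnb2-binding role described in mouse cerebellum, stood at 16.7, 16.8 and 19.6 FPKM in tachypaced libraries, against 19.7, 25.3 and 24.2 FPKM in control libraries. The groups did not overlap, but tachypaced replicate 3 and control replicate 1 nearly met, and the log2 fold change of -0.36 (SE 0.10) did not pass (adjusted p = 0.0608), though it did without control replicate 1 (-0.47, adjusted p = 0.00338), with a minimum mean of 5 FPKM (adjusted p = 0.0493) and with a common total (adjusted p = 0.0391). Sema6b, a transmembrane semaphorin that binds A plexins, stood at 1.33 ± 0.304 FPKM in tachypaced and 1.90 ± 0.552 FPKM in control libraries (adjusted p = 0.214, and 0.0186 without control replicate 1). Without control replicate 1, 30.0% of all tested genes passed, and neither Sema4g nor Sema6b passed in any other omission of a library. Plxna2, another partner of neuropilins, stood at 2.03 ± 0.148 FPKM in tachypaced and 2.44 ± 0.109 FPKM in control libraries (adjusted p = 0.162), and Plxnb3, the receptor of Sema5a, at 1.02 ± 0.0696 FPKM in tachypaced and 1.12 ± 0.105 FPKM in control libraries (SD, n = 3 each, adjusted p = 0.625).

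The 7 class 3 semaphorins, the ligands of the neuropilins and A plexins, reached at most 0.374 FPKM in any library, and 4 of them, Sema3a, Sema3c, Sema3d and the Plxnd1 ligand Sema3e, were listed at 0 throughout. Sema7a, the ligand of Plxnc1, was at 0.140 ± 0.00771 FPKM in tachypaced and 0.0814 ± 0.0368 FPKM in control libraries (SD, n = 3 each). Plxnb1, the receptor with high affinity for Sema4d, reached at most 0.0316 FPKM, and Plxnb3, the remaining B plexin, 0.958 to 1.185 FPKM. Of the 31 family members 6 were listed at 0 in every library.

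The wider pathway was read from a list of 61 co-receptors, sheddases and signalling partners, of which 44 could be tested. By limma 1 rose and 2 fell, against 5.52% of all tested genes, and the median log2 fold change was -0.05, against -0.04 over all tested genes. Tachypaced and control values did not overlap in 19 of the 44, against 34.9% of all tested genes. Rap1b, a substrate of the plexin GTPase activating domain, rose to 107 ± 5.57 FPKM in tachypaced libraries, against 83.7 ± 6.65 FPKM in control libraries (SD, n = 3 each, log2 fold change 0.35, SE 0.07, adjusted p = 0.0435). Rock1, a kinase downstream of RhoA, fell to 8.76 ± 0.326 FPKM in tachypaced libraries, against 10.96 ± 0.738 FPKM in control libraries (log2 fold change -0.29, SE 0.07, adjusted p = 0.0479). Tiam1, an exchange factor for Rac, fell to 3.68 ± 0.216 FPKM in tachypaced libraries, against 5.07 ± 0.603 FPKM in control libraries (log2 fold change -0.37, SE 0.09, adjusted p = 0.0484). These 3 calls also held without control replicate 1 and ended when any of the other 5 libraries was left out (adjusted p up to 0.174). They also ended after quantile normalization, without the trend and without the filter, and Rock1 and Tiam1 after median of ratios scaling. Without control replicate 1, 7 of the 44 passed, 3 higher and 4 lower, against 30.0% of all tested genes in that setting.

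**Figure D5:**
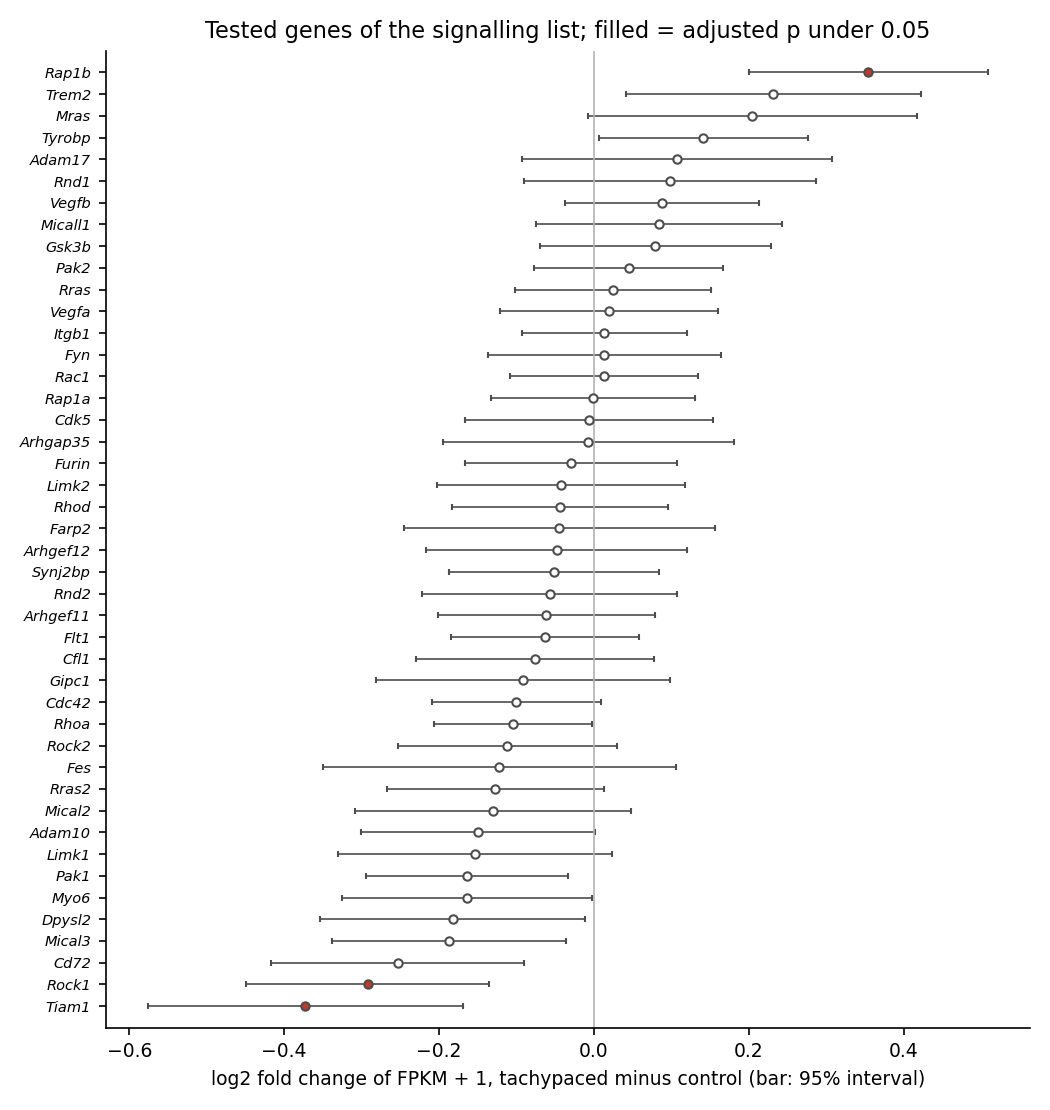
Log2 fold change of FPKM + 1, tachypaced minus control, with its 95% interval, for the 44 tested genes of the signalling list, sorted by value; a filled point has an adjusted p under 0.05. Rap1b at 0.35 is the highest and Rock1 at -0.29 and Tiam1 at -0.37 are the lowest, and most other intervals include 0.

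Other receptors and receptor partners did not pass. Cd72, the Sema4d receptor of lymphocytes, stood at 76.7 ± 1.19 FPKM in tachypaced and 91.9 ± 9.10 FPKM in control libraries without overlap (adjusted p = 0.0657, with 0.00197 without control replicate 1 and 0.0363 with a common total). Without control replicate 1, 30.0% of all tested genes passed, and Cd72 passed in no other omission of a library. The Plxna1 partners Trem2 and Tyrobp had log2 fold changes of 0.23 (adjusted p = 0.107) and 0.14 (adjusted p = 0.150), also without overlap. Itgb1, a subunit of the Sema7a receptor, stood at 69.6 ± 1.26 FPKM in tachypaced and 68.9 ± 0.540 FPKM in control libraries (SD, n = 3 each, adjusted p = 0.868). The other subunit of that receptor, Itga1, was listed at 0 in every library, so the level of Itgb1 does not show that the receptor is present. Met, which B plexins can engage, and the Sema4a receptor Timd2 were listed at 0 in every library.

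Of the proteases that act on semaphorins, Adam10 and Adam17 had log2 fold changes of -0.15 and 0.11 (adjusted p = 0.169 and 0.440), with ranges of -0.19 to -0.09 and 0.04 to 0.22 when 1 library was left out. Adam17 passed without control replicate 1 (adjusted p = 0.00969) and in none of the other 5 omissions. The proprotein convertase Furin had -0.03 (adjusted p = 0.768), and Mmp14, which sheds Sema4d in tumour cells, was at or below 0.0133 FPKM. The neuropilin ligand Vegfa stood at 74.1 ± 3.88 FPKM in tachypaced and 73.2 ± 4.21 FPKM in control libraries (SD, n = 3 each, adjusted p = 0.861). Vegfb, its relative, had a log2 fold change of 0.09 (adjusted p = 0.307), and 0.04 to 0.12 when 1 library was left out. Of the VEGF receptors Flt1 stood at 18.97 ± 0.483 FPKM in tachypaced and 19.9 ± 0.117 FPKM in control libraries without overlap (SD, n = 3 each, adjusted p = 0.452), and Kdr was at or below 0.0254 FPKM. The groups did not overlap for Adam10, Vegfb and Rhoa either. Inside the cell, the plexin B RhoGEFs Arhgef11 and Arhgef12 had log2 fold changes of -0.06 and -0.05 (adjusted p = 0.533 and 0.696). Rhoa had -0.10 (adjusted p = 0.156) and Rac1 0.01 (adjusted p = 0.891). Farp2, the plexin A exchange factor, had -0.04 (adjusted p = 0.765), while its relative Farp1 was at or below 0.0389 FPKM and the actin oxidase Mical1 at or below 0.120 FPKM. Its relatives were present, with Mical2 at 6.87 FPKM in tachypaced and 7.59 FPKM in control libraries (means, adjusted p = 0.287). Mical3 stood at 5.63 FPKM in tachypaced and 6.55 FPKM in control libraries (adjusted p = 0.104). Neither overlapped between groups and neither passed by limma.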

How the data were processed

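RNA of 6 libraries labelled HL-1 was sequenced after library preparation with a SMARTER mRNA kit, per the labels' protocols. The authors deposited FPKM values for each gene name in each library, on the build GRCm38 (mm10) named in the submitters' processing notes; the sources used here name no aligner, quantifier, annotation or strand setting. Columns were matched to samples by the sample descriptions and groups taken from the titles. The FPKM summed to 411050 to 432244 per library. Depth is unknown: ratios of values under 0.1 FPKM between libraries did not gather on a step (the fullest log2 bin of width 0.05 held 5.15% of them), and no interval or detection floor could be given. No 2 libraries were identical.

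Values were transformed to log2(FPKM + 1), a scale that understates the change of low genes, and tested with limma 3.58.1 in R 4.3.3 (two-sided, tachypaced minus control, no covariates, all 6 libraries, genes averaging 1 FPKM or more). The steps were tested on simulated data with planted changes larger than those of the members and no deviating control library. That simulation does not bear on changes of the size seen here. Positions came from GENCODE M21 and promoter windows from RefSeq, with 9 of the 10 members matched. The alternatives were a pseudocount of 0.1, no filter, a minimum mean of 5 FPKM, 3 scalings, no trend, a replicate block and the omission of each library in turn. Genes named were the 10 members, the other family genes averaging 1 FPKM or more, the called genes of the pathway lists and a fixed set of partners, plus the 3 genes most like Plxnb2. Itga1, Mical2 and Mical3 were added after their values were seen. Members and lists were chosen with earlier results of these data known. Python 3.11.15, scipy 1.17.1, pandas 2.3.3 and matplotlib 3.10.9 were used for tables and figures.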

Additional observations from a re-analysis of the deposited data

How the results depend on the processing

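The number of members that passed was 1 with a pseudocount of 0.1, a minimum mean of 5 FPKM, a common total and the replicate block, and 0 with no filter, median of ratios scaling, quantile normalization and no trend; leaving out 1 library gave 0 to 4. The Plxnb2 log2 fold change was -0.20 with no filter and without the trend, -0.16 after median of ratios scaling and -0.20 after quantile normalization, none past the threshold, and -0.22 to -0.19 with 1 library left out. With 1 library left out, Sema4d ranged from 0.17 to 0.31, Plxna1 from 0.22 to 0.41, Nrp2 from 0.11 to 0.25, Sema4a from -0.11 to 0.063, Sema4b from -0.037 to 0.079, Sema4c from -0.083 to 0.0019, Itgb1 from -0.0011 to 0.022, Furin from -0.065 to 0.016, Vegfa from -0.010 to 0.065, Arhgef12 from -0.078 to 0.0027, Farp2 from -0.078 to 0.014 and Rac1 from -0.021 to 0.034. A common total reversed Sema4a to -0.035, Sema4b to -0.0058, Itgb1 to -0.025, Vegfa to -0.020 and Rac1 to -0.026; median of ratios scaling reversed Furin to 0.011, and quantile normalization reversed Furin to 0.0096 and Arhgef11 to 0.0073. Shares with 1 library left out ranged from -1.02 to 0.562 points for Sema4a, -0.159 to 0.303 for Sema4b and -0.245 to 0.0245 for Sema4c. The signalling list had 0 calls with no filter, quantile normalization and no trend, 1 after median of ratios scaling, and 0 to 7 with 1 library left out. Over all tested genes the 572 calls became 0 with no filter, 17 after quantile normalization, 1174 with a common total, 2 without the trend, 925 with the replicate block and 1 to 3109 with 1 library left out; the causes were not tested. The deviations of same-numbered libraries from their group means had correlations of 0.0615, -0.0340 and 0.157, so the replicate numbers were not taken as pairs; under the block Plxnb2 passed (adjusted p = 0.0481), and so did Sema4g (adjusted p = 0.0410). Depth is unknown, so nothing can be said of how far it limits the low members Nrp1, Sema4c and Plxnc1.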

Other observations

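The other guidance families, ephrins, netrins and slits with their receptors and the repulsive guidance molecules, were mostly at low levels or at 0 in these libraries. Of 37 genes 16 were listed at 0 in every library and 3 reached the level tested, of which 0 passed by limma and 1 had an unadjusted p under 0.05, against 5.52% and 30.2% of all tested genes. Those 3 are named here after their values were seen. The ephrin Efna1 stood at 30.02 ± 0.450 FPKM in tachypaced and 33.95 ± 2.85 FPKM in control libraries (SD, n = 3 each, adjusted p = 0.135). The ephrin receptor Epha2 stood at 7.69 ± 0.292 FPKM in tachypaced and 6.71 ± 1.13 FPKM in control libraries (SD, n = 3 each, adjusted p = 0.255). The repulsive guidance molecule Rgmb stood at 1.02 ± 0.175 FPKM in tachypaced and 1.09 ± 0.0274 FPKM in control libraries (SD, n = 3 each, adjusted p = 0.737).

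The 3 tested genes whose pattern over the 6 libraries was nearest to that of Plxnb2, by the Euclidean distance of log2(FPKM + 1) after removing each gene's mean, were Susd3 (0.0287), Gphn (0.0332) and Nfatc3 (0.0368). Susd3, a sushi domain protein, stood at 7.36, 7.17 and 7.58 FPKM in tachypaced libraries, against 8.35, 8.48 and 8.79 FPKM in control libraries. Gphn, the scaffold protein gephyrin, stood at 30.8, 30.2 and 31.4 FPKM in tachypaced libraries, against 34.6, 35.1 and 35.5 FPKM in control libraries. Nfatc3, a calcineurin-dependent transcription factor, stood at 9.05, 8.98 and 9.34 FPKM in tachypaced libraries, against 10.4, 10.4 and 10.6 FPKM in control libraries. Their adjusted p-values of 0.0903, 0.0617 and 0.0904 did not pass. By limma without control replicate 1, where 30.0% of all tested genes passed, Susd3 (adjusted p = 0.0465) and Gphn (adjusted p = 0.0184) did, and Nfatc3 (adjusted p = 0.0534) did not. Gphn also passed with a common total (adjusted p = 0.0375). These genes were picked for closeness to Plxnb2 over these same 6 libraries, and Plxnb2 was used as the member with the lowest p. Their lower tachypaced values and small p-values follow from that choice and lend no support to the Plxnb2 result.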
